A study of Mus musculus with 12 samples.

Results

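Cultures given the β4b splice variant were compared with cultures given eGFP, across all genes on the array. The 6 arrays compared, 3 with β4b and 3 with eGFP, were taken by their titles out of the 12 arrays of the series and paired by replicate number. Each array held RNA from primary cerebellar granule cells of lethargic mice on a 129/SvJ background, so the Cacnb4 mutation of this strain was shared by the β4b and the eGFP group. Pups were 7 days old, the cells received lentivirus for 12 h right after plating, and RNA was taken after 9 days in vitro. The β4b group carried a construct named for β4b and the eGFP group one named for eGFP, both with the βA prefix in the labels, and Ara-C was added to both against dividing non-neuronal cells. The growth protocol also names BALB/c mice, but the sample labels give 129/SvJ for all 12 arrays. The remaining arrays carried the β4a and β4e variants, 3 each, and served for direct comparisons with β4b.

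The β4 subunit, encoded by Cacnb4, binds the pore-forming α1 subunits of high-voltage-activated calcium channels from the cytosolic side and sets their surface level and gating. Cerebellar granule cells are small glutamatergic neurons in which β4 is one of the main β subunits, and lethargic mice, which lack functional β4, are ataxic and have seizures. Splice variants of β4 differ in their N-terminal part, and β4b is known for entering the nucleus of neurons, so that the comparison asks which transcripts differ once this variant is supplied.

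The array values were log2 intensities, 1 per probe set, and 23044 of 45101 probe sets lay above 4 in at least 3 of the 12 arrays and were tested. The 6 arrays correlated with each other at r between 0.934 and 0.990 across probe sets. Granule cell transcripts were strong in both groups: Gabra6, Neurod1, Zic1 and Cbln3 had values between 13.13 and 14.42 in β4b arrays and between 13.21 and 14.39 in eGFP arrays. Arrays with replicate number 3 stood apart from the others in a sex-linked transcript, the X-inactivation RNA Xist, which had 3.76, 3.69 and 12.99 in β4b replicates 1 to 3 and 3.86, 3.57 and 13.13 in eGFP replicates 1 to 3. The β4b and eGFP arrays of 1 number matched in it. Among the 6 arrays, eGFP replicate 1 stood apart in the 3′ minus 5′ difference of the Gapdh control probe sets, which was 0.0939, 0.104 and 0.066 with β4b and 0.395, 0.121 and 0.0286 with eGFP in replicates 1 to 3. The β4e array of replicate 1 had 0.403. The Actb control probe sets gave 0.82, 0.854 and 0.924 with β4b and 0.964, 0.865 and 0.959 with eGFP. By Actb, eGFP replicate 1 did not stand apart. The labels do not say whether the numbers are separate litters or cultures. By its Xist level, number 3 held RNA of other pups than numbers 1 and 2, while these 2 matched each other in Xist. The p-values measure the spread left over all 12 arrays once group and replicate number were fitted.

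A pair of genes rose and 1 fell in the β4b cultures past the threshold. Limd2, which encodes a small LIM domain protein, and Zeb2, a zinc finger homeobox factor that represses its targets through E-box motifs, were higher. Insm1, a transcription factor of neuroendocrine cells and newborn neurons, was lower. These were 3 of the 23044 probe sets at an adjusted p under 0.05, or 0.013%, with 0.00868% higher and 0.00434% lower (limma with the replicate number as a block, Benjamini-Hochberg).

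Limd2 had 8.46, 8.54 and 6.26 in β4b replicates 1 to 3, against 6.80, 7.16 and 5.06 in eGFP replicates 1 to 3, and the log2 difference was 1.42 ± 0.14 (SE, 95% interval 1.10 to 1.74). The groups overlapped, because replicate 3 was low in both, but each β4b array lay above the eGFP array of its number. Zeb2 had 6.06, 6.20 and 6.32 in β4b arrays, against 4.64, 4.66 and 5.16 in eGFP arrays, a log2 difference of 1.38 ± 0.15 (95% interval 1.05 to 1.70). Every β4b array was above every eGFP array. Insm1 had 9.88, 6.08 and 7.69 in β4b arrays, against 10.85, 7.56 and 9.17 in eGFP arrays, a log2 difference of -1.31 ± 0.13 (95% interval -1.60 to -1.02). Its level moved by over 3 log2 units between replicate numbers in both groups, and the β4b array was the lower one within each number. The adjusted p was 0.0295 for Limd2, 0.0304 for Zeb2 and 0.0295 for Insm1 (limma, Benjamini-Hochberg), and none of the 3 passed without the replicate block or in a fit to the 6 arrays alone. With 1 probe set per gene, the brightest, Zeb2 did not pass (limma adjusted p 0.184). Leaving out arrays gave 0 to 61 calls, with 61 when eGFP replicate 1 was left out and 0 when any β4b array was. In these bulk cultures, fewer cells of a type and less of a transcript per cell cannot be told apart.

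**Figure D1:**
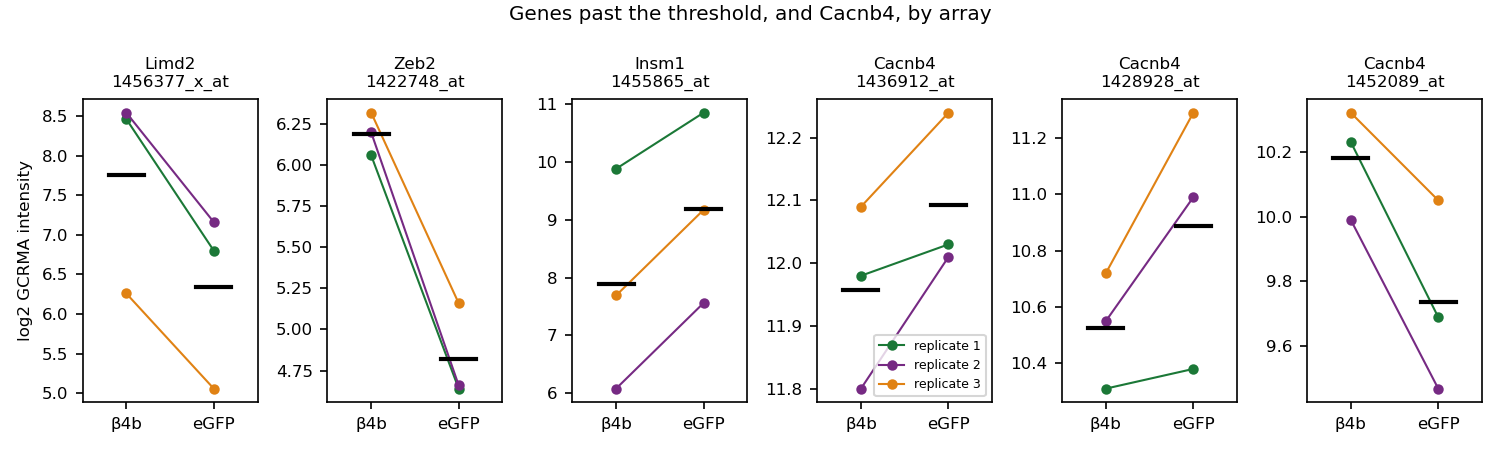
Log2 GCRMA intensity of Limd2, Zeb2, Insm1 and the 3 tested Cacnb4 probe sets in each of the 3 β4b arrays (left) and 3 eGFP arrays (right) of a panel; lines join arrays of 1 replicate number, black bars are group means, and each panel has its own vertical range. All 3 lines fall from β4b to eGFP for Limd2, Zeb2 and the Cacnb4 probe set 1452089_at, and all 3 climb for Insm1 and the other Cacnb4 probe sets.

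Cacnb4 itself, the gene mutated in these mice and supplied by the virus, was read by 3 tested probe sets that gave no common direction. Probe set 1452089_at had 10.23, 9.99 and 10.32 in β4b arrays, against 9.69, 9.47 and 10.05 in eGFP arrays, a log2 difference of 0.44 ± 0.12. Probe set 1428928_at had 10.31, 10.55 and 10.72 in β4b arrays, against 10.38, 10.99 and 11.29 in eGFP arrays, a difference of -0.36 ± 0.11. Probe set 1436912_at, the brightest, had 11.98, 11.80 and 12.09 in β4b arrays, against 12.03, 12.01 and 12.24 in eGFP arrays, a difference of -0.14 ± 0.08. Each varied by less than 1 log2 unit across the 6 arrays, and none passed (limma adjusted p 0.127, 0.152 and 0.404 in this order). Which of them, if any, lies within the viral transcript is not given in the sources used here, so the labels of the β4b arrays have no check from this gene.

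The promoters of the genes that passed, and of Kcna2 as a potassium channel gene with a low p and a smaller value in β4b cultures, were read from RefSeq (GRCm38.p6) to show the sequence in front of them. Of 5 genes looked up, including Prkcb, 4 had entries, with 3 starts for Limd2, 4 for Zeb2 and 1 each for Kcna2 and Prkcb, and Insm1 was not among them. The 250 bases before the farthest upstream start are given for 3 of them, 5′ to 3′ on the strand of the gene. Motifs searched on both strands were the ZEB E-box CACCTG, the AP-1 motif TGANTCA and the CRE TGACGTCA, and capitals mark a match.
Limd2, chr11:106160730-106160979, minus strand: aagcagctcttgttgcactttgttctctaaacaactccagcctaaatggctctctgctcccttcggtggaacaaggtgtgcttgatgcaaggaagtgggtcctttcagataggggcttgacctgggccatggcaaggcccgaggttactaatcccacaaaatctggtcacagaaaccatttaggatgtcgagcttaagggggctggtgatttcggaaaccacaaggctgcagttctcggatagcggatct
Zeb2, chr2:45117443-45117692, minus strand: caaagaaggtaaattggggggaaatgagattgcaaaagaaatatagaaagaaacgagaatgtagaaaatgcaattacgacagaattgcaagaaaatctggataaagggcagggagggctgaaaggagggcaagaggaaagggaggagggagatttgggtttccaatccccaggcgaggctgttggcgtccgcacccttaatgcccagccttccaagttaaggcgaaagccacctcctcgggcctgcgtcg
Kcna2, chr3:107101317-107101566, plus strand: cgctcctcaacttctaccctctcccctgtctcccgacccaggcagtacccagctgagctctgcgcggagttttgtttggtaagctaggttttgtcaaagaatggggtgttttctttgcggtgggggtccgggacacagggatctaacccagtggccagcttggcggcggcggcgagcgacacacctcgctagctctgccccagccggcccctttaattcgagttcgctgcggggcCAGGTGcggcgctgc
The Kcna2 window held 1 match to CACCTG, read on the other strand, 15 bases before the start. The windows of Limd2 and Prkcb, and the first 3 of the 4 Zeb2 windows, held no match to these letters. The window of the most downstream Zeb2 start held 2 matches to TGANTCA, 189 and 132 bases before that start.
Zeb2, chr2:45110450-45110476, minus strand: cgcctagcctTGAGTCAagcagtctta
Zeb2, chr2:45110393-45110419, minus strand: tcaggagttaTGACTCAttttgaagat
Of all 32851 windows of 250 bases in the table, 17.2% held CACCTG, 6.75% held TGANTCA and 1.55% held TGACGTCA. A match describes the sequence only.

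Beyond the 3 genes, a broad set of probe sets lay just outside the threshold. At an unadjusted p under 0.05 there were 2667 higher (11.6%) and 1780 lower (7.72%) of 23044, and 52 higher and 14 lower probe sets had an adjusted p between 0.05 and 0.06, the smallest being 0.052. Over all probe sets the median log2 difference was 0.03. Quantile normalizing the arrays once more turned the split to 2124 higher and 2283 lower. The differences within replicate numbers correlated across probe sets at r = 0.294 between replicates 1 and 2, 0.218 between 1 and 3 and 0.517 between 2 and 3, which describes arrays that share no sample. All 3 β4b arrays lay above all 3 eGFP arrays for 838 probe sets (3.64%) and below them for 462 (2%).

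**Figure D2:**
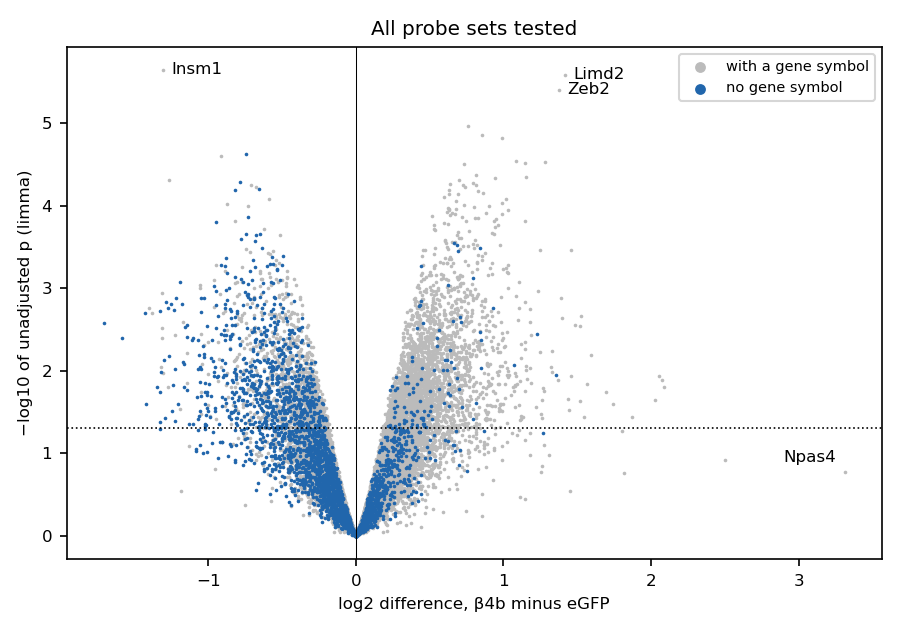
Log2 difference (β4b minus eGFP) against the size of the unadjusted p of limma (vertical axis, −log10) for each of the 23044 probe sets, in blue where the annotation gave no gene symbol and in grey where it did; the dotted line marks the unadjusted threshold. Limd2, Zeb2 and Insm1 lie at the top, blue points gather on the lower side, and Npas4 has the highest difference (3.31) below the line.

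None of the genes named next passed the threshold: on the probe set that each was chosen by, the limma adjusted p was between 0.052 and 0.0747 (Benjamini-Hochberg). On the higher side, Robo1, a receptor for Slit guidance cues, had 8.71, 7.99 and 8.17 in β4b arrays, against 8.15, 7.16 and 7.36 in eGFP arrays. Rp2, which acts on the small GTPase Arl3 in cilia, had 5.85, 5.19 and 4.72 in β4b arrays, against 4.95, 4.00 and 3.55 in eGFP arrays. The groups overlapped for both genes, while the β4b array was the higher one within every number. Ldah, a hydrolase of lipid droplets, was 1.15 ± 0.15 higher, Slc35a2, the UDP-galactose transporter of the Golgi, 0.81 ± 0.11, and Lztfl1, which regulates ciliary traffic of the BBSome, 0.80 ± 0.11 on the log2 scale. The kinase gene Bmp2k was 0.70 ± 0.10 higher, the SET domain gene Smyd4 0.81 ± 0.12 and Fam168a 0.64 ± 0.09. A pair of genes known by clone names, A830010M20Rik and 2610507B11Rik, were 1.28 ± 0.17 and 0.86 ± 0.10 higher. All of these differences had the same sign within the 3 replicate numbers, a criterion of their choice. Brighter probe sets of several of these genes gave less: 0.40 and 0.23 for Rp2, 0.41 for Ldah, 0.17 and 0.65 for Lztfl1, 0.04 to 0.17 for Fam168a, 0.07 for each of A830010M20Rik and 2610507B11Rik, and -0.20 for Slc35a2. A brighter probe set of Bmp2k gave 0.32, with -0.23 in replicate 1.

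Rrm2b, a p53-inducible subunit of ribonucleotide reductase, was read by 4 tested probe sets. The brightest, with an eGFP mean of 7.30, differed by 0.31 on the log2 scale. The other 3 had β4b means of 4.29, 4.87 and 4.68, against eGFP means of 3.13, 3.92 and 3.84, under the filter value of 4, so that they give no exact fold. Haghl, related to the glyoxalase hydrolase, differed by 0.76, 0.76 and 0.62 on 3 probe sets and by -0.15 on a dim further one. For Zeb2 the other tested probe sets gave 0.79 and 0.83. For Insm1 the second gave -0.83. For Limd2 the dim second gave 0.11, so the Limd2 call rests on a single probe set, whose _x_at suffix marks probes that can match other transcripts.

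On the lower side, the genes nearest to the threshold included channel and signalling genes. Kcna2, the voltage-gated potassium channel subunit Kv1.2, had 9.95, 10.35 and 9.71 in β4b arrays, against 10.90, 11.00 and 10.72 in eGFP arrays, and its other tested probe set differed by -0.73. Prkcb, the calcium- and diacylglycerol-dependent protein kinase C β, had 10.06, 7.14 and 8.96 in β4b arrays, against 10.98, 8.93 and 10.05 in eGFP arrays, with -0.92 on its brighter probe set. The groups did not overlap for Kcna2 and overlapped for Prkcb. Zfyve28, an endosomal regulator of receptor traffic, was lower by 0.59 ± 0.09 on the log2 scale, Cemip, a hyaluronan-binding protein, by 0.63 ± 0.11, Pdlim7, an actin-linked PDZ and LIM domain protein, by 0.75 ± 0.14, and Nkain1, a partner of the sodium pump, by 0.72 ± 0.13. Nav1, which binds microtubules in growing neurites, was lower by 0.52 ± 0.09 on a probe set with means of 3.81 in β4b arrays and 4.33 in eGFP arrays, and differed by -0.64 and -0.77 on its bright ones. A930013F10Rik, known by a clone name, was lower by 0.82 ± 0.13. Ftx, a noncoding RNA of the X-inactivation centre, had 8.63, 9.77 and 9.41 in β4b arrays, against 9.08, 10.40 and 10.01 in eGFP arrays.

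For 3 further genes of this group the low value came from probe sets of middle intensity and not from the brightest ones. Tpp2, a cytosolic peptidase, differed by -0.68 and -0.64 on probe sets with eGFP means of 7.52 and 7.50, and by 0.01 and 0.29 on those with eGFP means of 9.34 and 8.06. Zfp207, a spindle and splicing factor, differed by -0.71 and -0.59 on 2 probe sets with eGFP means of 7.85 and 7.81 and by 0.11 and -0.07 on the bright ones. Mtrex, the helicase of the nuclear RNA exosome, differed by -0.91 on a probe set with an eGFP mean of 8.42 and by -0.19 on the one at 10.55. In all, 5019 genes had more than 1 tested probe set: 345 of these had at least 2 higher at an unadjusted p under 0.05, 134 had at least 2 lower, and 74 had 1 or more in each direction, among them Plcb4, a phospholipase C, with 2 of 5 higher and 1 lower.

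Some genes had many probe sets on 1 side, all read on the same arrays. Ugp2, which makes UDP-glucose, was 0.41 to 0.90 higher on 5 probe sets, Endod1 0.44 to 0.76 on 5, Gna13, a G protein α subunit, 0.23 to 0.72 on 5, Vamp3, a SNARE of recycling endosomes, 0.30 to 0.72 on 4, and Serinc3, a multipass membrane protein, 0.56 to 0.93 on 4. On the lower side Gle1, an mRNA export factor, differed by -0.65 to -0.27 on 5 probe sets, Rbm39, a splicing factor, by -0.68 to -0.21 on 5 of 12, and Pitpnc1, a phosphatidylinositol transfer protein, by -0.45 to -0.29 on 5 of 8. Cadm1, a synaptic adhesion molecule, differed by -0.39 to -0.26 on 4, Eml5, a microtubule-binding protein, by -0.80 to -0.42 on 4, and Mtss1, a membrane-bending actin regulator prominent in the cerebellum, by -0.99 to -0.46 on 4. The brightest probe set differed by 0.14 for Gna13, 0.13 for Vamp3, 0.19 for Serinc3, 0.01 for Gle1 and -0.30 for Pitpnc1, none at an unadjusted p under 0.05. Further tested probe sets, also not at that p, gave -0.21 and -0.38 for Mtss1, 0.19 for Gna13 and -0.18 for Gle1. A probe set of Vamp3 (eGFP mean 3.96) and 1 of Gna13 (3.68) lay under 4 with eGFP. None of these probe sets passed after adjustment, and those within the ranges were chosen by an unadjusted p under 0.05.

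Among brighter genes, those with the largest differences at a low unadjusted p did not pass either. F2r, the thrombin receptor, had 7.97, 7.31 and 8.93 in β4b arrays, against 7.56, 5.28 and 6.91 in eGFP arrays. Rasgrp1, a calcium- and diacylglycerol-regulated Ras activator, had 7.24, 11.24 and 10.06 in β4b arrays, against 6.28, 9.88 and 8.62 in eGFP arrays. Igfbp5, an IGF-binding protein, had 7.48, 9.28 and 10.18 in β4b arrays, against 7.72, 7.15 and 8.09 in eGFP arrays. Paqr8, a membrane progestin receptor, had 7.84, 8.14 and 8.56 in β4b arrays, against 7.44, 6.64 and 6.77 in eGFP arrays. Igfbp5 and F2r differed by about 2 log2 units in replicates 2 and 3 and by -0.24 and 0.41 in replicate 1. Paqr8 had its smallest gap, 0.40, in replicate 1 too, while Rasgrp1 differed by 0.96 to 1.44 in all 3.

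On the lower side Syt1, the calcium sensor of fast transmitter release, had 6.61, 9.89 and 9.89 on 1438282_at in β4b arrays, against 8.86, 11.00 and 10.47 in eGFP arrays, but its bright probe set differed by -0.29. Trpm3, a cation channel, had 4.50, 6.29 and 7.29 on 1456923_at in β4b arrays, against 6.66, 7.38 and 8.19 in eGFP arrays, with -0.37 and -0.50 on brighter ones. Tenm2, a teneurin that binds latrophilins across the synapse, had 5.29, 6.38 and 8.73 in β4b arrays, against 7.39, 7.33 and 9.89 in eGFP arrays. Sgip1, an adaptor of endocytosis, had 5.84, 8.45 and 8.69 on 1431300_at in β4b arrays, against 8.12, 9.14 and 9.67 in eGFP arrays, but differed by 0.13 on its brightest probe set. C130075A20Rik, known by a clone name, had 5.64, 9.80 and 9.55 in β4b arrays, against 8.18, 10.60 and 10.18 in eGFP arrays. These 5 had their largest gap in replicate 1. Of all probe sets, 2.84%, 0.399% and 0.295% were over 1 log2 unit lower with β4b within replicates 1 to 3. Syn3, synapsin III of synaptic vesicles, had 9.07, 4.66 and 7.12 in β4b arrays, against 9.46, 6.48 and 8.85 in eGFP arrays. Its smallest gap was in replicate 1.

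Groups of genes were read with 1 probe set per gene, the brightest, over 10983 genes. At an unadjusted p under 0.05, 11.9% of these genes were higher and 4.53% lower, and the median log2 difference was 0.04. The groups are described by their counts and medians beside these values, without a test.

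The calcium channel list had the lowest median of all lists, -0.21, with -0.18, -0.21 and -0.29 within replicates 1 to 3. Of 14 members tested, 5 (35.7%) were lower at an unadjusted p under 0.05 and 1 (7.14%) was higher, beside 4.53% and 11.9% of the 10983 genes. The lower ones were pore-forming subunits: Cacna1b (N-type) at -0.33, Cacna1c (L-type) at -0.39, Cacna1d (L-type) at -0.85, Cacna1e (R-type) at -0.37 and Cacna1g (T-type, which needs no β subunit) at -0.33. Cacna1d had the widest range, -0.18, -0.84 and -1.54 in replicates 1 to 3. Cacna1a, the P/Q-type subunit and the main partner of β4 in the cerebellum, had 11.26, 11.11 and 11.07 in β4b arrays, against 11.25, 11.29 and 11.41 in eGFP arrays, a difference of -0.17 ± 0.13. A dimmer Cacna1a probe set, 1430408_at, had 6.65, 8.28 and 8.30 in β4b arrays, against 7.78, 9.27 and 9.02 in eGFP arrays, with a limma adjusted p of 0.0799 (Benjamini-Hochberg). The groups overlapped on both probe sets. The higher member was Cacng5, an auxiliary subunit of AMPA receptors, with 6.07, 6.64 and 5.34 in β4b arrays, against 6.06, 4.81 and 3.73 in eGFP arrays. Without replicate 3, 1 of the 14 was lower at that p, and without the block 0 were. Over all 23044 probe sets, 1213 and 107 were lower in these settings.

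Of 30 potassium channel genes tested, 6 were higher (20%) and 1, Kcna2, was lower (3.33%), beside 11.9% and 4.53% of the 10983 genes. Of the 6, auxiliary subunits made up 5: Dpp10 (1.25) and the KChIPs Kcnip2 (0.59) and Kcnip4 (0.90), which belong to A-type channels, and the Kvβ subunits Kcnab1 (0.42) and Kcnab2 (0.53). Kcnk12, a tandem pore-domain channel gene, was the other, at 0.90. Kcnd2, the pore of the A-type channel in granule cells, had 13.39, 13.10 and 13.26 in β4b arrays, against 13.35, 13.09 and 13.29 in eGFP arrays, a difference under the spread between arrays, and 0.27 and 0.42 on its dimmer probe sets. Of 11 sodium and HCN channel genes, 1 was higher (9.09%), Fgf12, a channel-binding factor, at 0.39. That share was near the 11.9% of all 10983 genes.

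Of 38 genes of the presynaptic machinery, 6 were lower (15.8%) and 3 higher (7.89%), beside 4.53% and 11.9% of the 10983 genes. Their median was -0.11, with -0.02, -0.11 and -0.16 within replicates 1 to 3. Pclo, a scaffold of the active zone, was at -0.47, Unc13a, the vesicle priming factor, at -0.54, Stx1a, a plasma membrane SNARE, at -1.23 and Rab3c, a vesicle GTPase, at -0.27, besides Syn3 and Syt1. The higher ones were Vamp1 (0.97), a vesicle SNARE, Doc2b (0.34), a calcium sensor, and Sypl (0.24). Of 16 glutamate receptor genes (median -0.14, with -0.09, 0.02 and -0.24 within replicates 1 to 3), 4 were lower: Gria2 (-0.30), Grin2c (-0.42), Grik5 (-0.28) and Grm5, which had 10.43, 4.94 and 9.32 in β4b arrays, against 10.78, 6.46 and 10.46 in eGFP arrays. Gria1, an AMPA receptor subunit, was the higher one, with 5.32, 6.53 and 9.07 in β4b arrays, against 5.34, 4.36 and 5.07 in eGFP arrays. Of the glutamate receptor genes, 25% were thus lower and 6.25% higher. Of 20 postsynaptic scaffold genes, Dlg2 (-0.63), Dlgap3 (-0.24) and Nlgn3 (-0.30) were lower (15%). Lrrtm2 (0.59) and Shank3 (0.32) were higher (10%, near the 11.9% of all 10983 genes). The medians were 0.06, 0.11 and -0.13 within replicates 1 to 3. Of 13 GABA and glycine receptor genes, 1 was lower (7.69%), Gabrb2 (-0.23), and 0 higher, with a median of 0.02.

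Of 24 granule cell identity genes, 4 were lower and 0 higher: the protocadherin Fat2 (-0.57), the late NMDA receptor subunit Grin2c (-0.42), Reln (-0.39), the secreted guide of neuronal migration, and the transcription factor Zic2 (-0.30). Gabra6, Neurod1, Zic1 and Cbln3 differed by 0.02, -0.01, -0.03 and 0.02. Over the 24 genes the median was -0.08, with 16 below 0 and 8 above. Of the 24, 10 (41.7%) were lower within all 3 replicate numbers and 3 (12.5%) higher, beside 14.1% and 24.3% of the 10983 genes. At an unadjusted p under 0.05 (limma), 16.7% were lower, beside 4.53%. The mean of the list ran from 11.52 to 11.55 in β4b arrays and from 11.65 to 11.73 in eGFP arrays.

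The unfolded protein response list had 9 of 25 members higher and 0 lower, with a median of 0.16 and 0.28, 0.17 and 0.09 within replicates 1 to 3. These were chaperones and disulfide isomerases of the endoplasmic reticulum, Pdia3 (0.54), Calr (0.33), Pdia4 (0.25), Dnajb9 (0.27), Dnajc3 (0.32) and Sdf2l1 (0.41), the secreted factors Manf (0.29) and Creld2 (0.35), and the transcription factor Atf5 (0.31). Hspa5, the main chaperone of the response, had 12.89, 12.93 and 12.71 in β4b arrays, against 12.41, 12.84 and 12.62 in eGFP arrays. Ddit3 differed by 0.14 and Atf4 by -0.23, and neither reached p 0.05. Without eGFP replicate 1, the array with the high Gapdh 3′ minus 5′ difference, 2 of the 25 were higher, and after a second quantile normalization 5 were. Over all probe sets, 2735 of 23044 and 2124 of 23059 were higher in these settings.

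Of 24 sterol and fatty acid synthesis genes, 4 were higher, Acsl6 (0.63), Sqle (0.48), Fdft1 (0.40) and Fdps (0.33), and 13 (54.2%) were higher within all 3 replicate numbers, as were 24.3% of the 10983 genes. Axon guidance genes had 4 higher (11.8%) and 5 lower (14.7%) of 34, beside 11.9% and 4.53% of the 10983 genes. The Slit receptors lay apart: Robo1 was at 0.73 and Robo2 at -0.81. Of 41 chromatin regulators, 5 were lower, the methyltransferases Kmt2d (-0.53) and Kmt2c (-0.23) and the remodellers Chd5 (-0.39), Chd8 (-0.25) and Chd7 (-0.24), 1 was higher, the deacetylase Hdac9 (0.74), and 15 (36.6%) were lower within all 3 numbers, as were 14.1% of the 10983 genes. Of 18 clock genes, 3 were lower, Arntl (-0.58), Clock (-0.39) and Cry1 (-0.31), and 0 higher. The median of the clock list was -0.03, with 0.21, -0.10 and -0.24 within replicates 1 to 3. Among p53 targets and apoptosis genes, Pmaip1 (0.76) and Bcl2 (0.43) were higher and Hrk (-0.46) lower of 18 tested. These shares, 11.1% and 5.56%, were near those of all 10983 genes, 11.9% and 4.53%. At the same p, 1 of 22 ribosomal protein genes and 0 of 30 oxidative phosphorylation genes differed, with medians of 0.05 and 0.03.

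**Figure D3:**
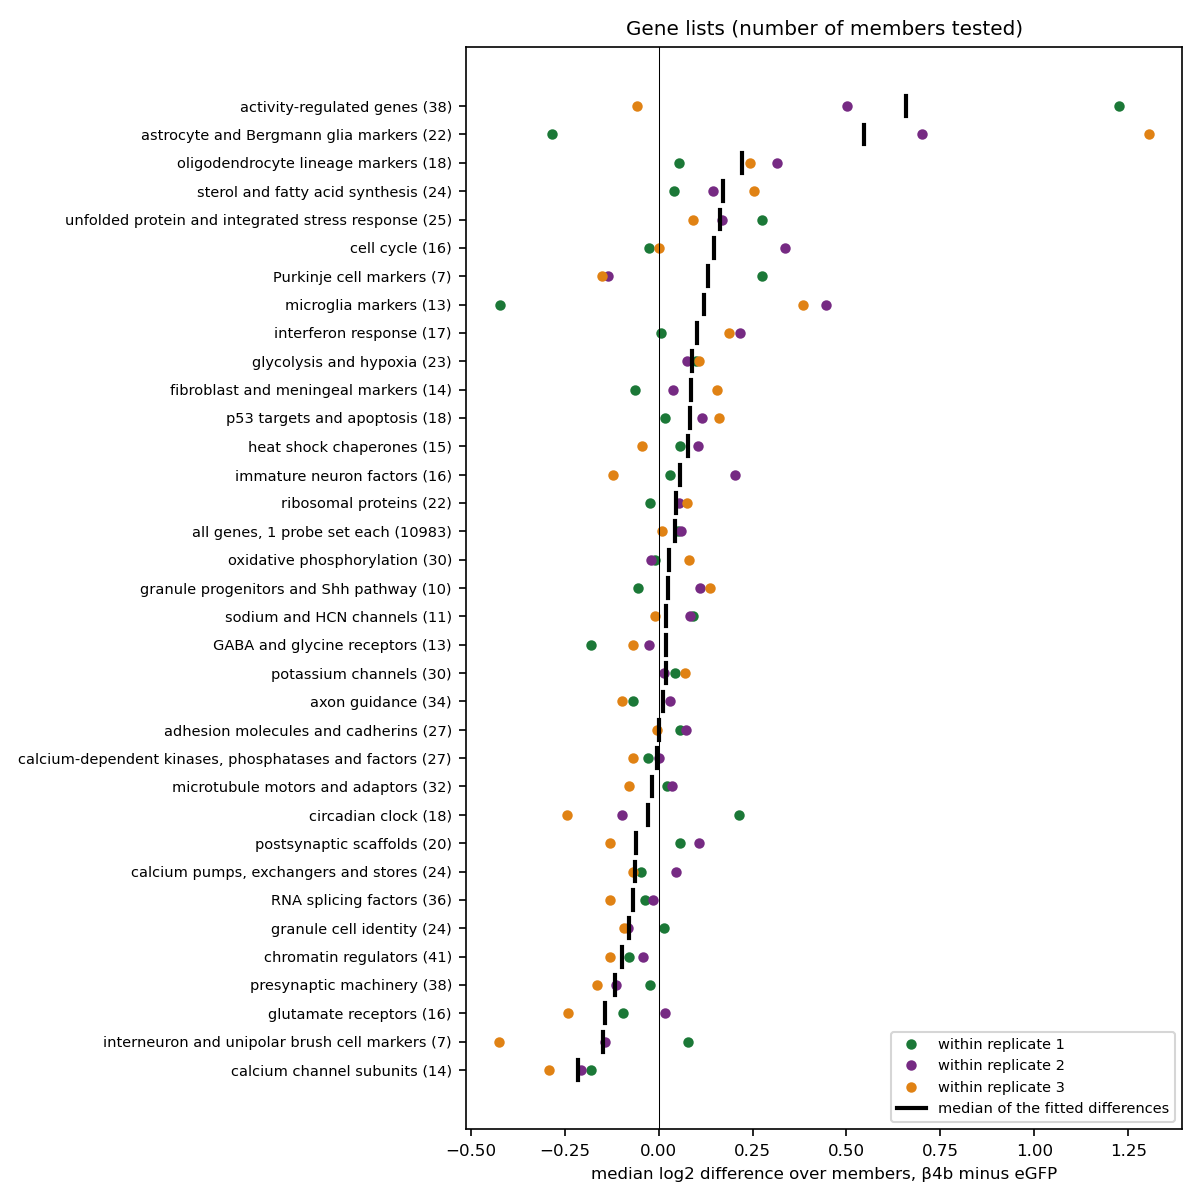
Median log2 difference (β4b minus eGFP) over the members of gene lists with at least 7 tested members; coloured points are medians of the differences within replicate numbers 1 to 3, black bars medians of the fitted differences, and the number tested is in brackets. The calcium channel list is lowest (-0.21), with its 3 points close together, and the activity-regulated and astrocyte lists are highest (0.66 and 0.55), with points on both sides of 0.

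The lists with the highest medians were also those in which the replicate numbers differed most. Activity-regulated genes, which neurons switch on after calcium entry, had a median of 0.66, with 1.22, 0.50 and -0.06 within replicates 1 to 3, and 4 of 38 were higher at p under 0.05: Dusp6 (1.18), a phosphatase of ERK, Ptgs2 (1.14), Ier3 (1.08) and Gadd45g (0.54). That share, 10.5%, was near the 11.9% of all 10983 genes. Npas4, a transcription factor induced by depolarisation, had 12.89, 12.27 and 7.35 in β4b arrays, against 3.02, 10.43 and 9.11 in eGFP arrays. Fos had 14.17, 13.90 and 11.08 in β4b arrays, against 8.62, 12.97 and 12.09 in eGFP arrays. Nr4a1 had 11.01, 10.17 and 6.36 in β4b arrays, against 4.91, 8.26 and 6.86 in eGFP arrays. The gap was wide in replicate 1, where the eGFP array was at or near background for Npas4, and the direction was opposite in replicate 3. Within replicate 1, 21 of the 38 genes were over 1 log2 unit higher with β4b, within replicate 2, 11 were, and within replicate 3, 4 were, where 3 were lower by as much. Of all probe sets, 0.959%, 1.71% and 2.50% were over 1 log2 unit higher within the 3 numbers. Lower by as much were 2.84%, 0.399% and 0.295%. The β4e array of replicate 1 had 3.20 for Npas4 and 8.52 for Fos, close to eGFP, and the β4a array of that number had 13.77 and 14.15, close to β4b. The Gapdh 3′ minus 5′ difference in replicate 1 was 0.0939 for β4b, 0.219 for β4a, 0.403 for β4e and 0.395 for eGFP. By it, β4a lay between β4b and the other arrays. The Actb difference was 0.82, 0.937, 1.09 and 0.964 in this order, with β4a close to eGFP. The part of RNA quality in the activity-regulated genes was not tested. Dusp6 had one sign throughout, with 9.49, 10.18 and 9.65 in β4b arrays, against 8.78, 8.59 and 8.40 in eGFP arrays.

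Astrocyte and Bergmann glia markers had a median of 0.55, with -0.28, 0.70 and 1.31 within replicates 1 to 3, and 7 of 22 were higher at p under 0.05 and 0 lower. Slc1a3, the glial glutamate transporter GLAST, had 9.57, 10.26 and 11.42 in β4b arrays, against 10.05, 7.79 and 8.84 in eGFP arrays. Gfap, the intermediate filament of astrocytes, had 10.91, 11.25 and 12.69 in β4b arrays, against 11.32, 10.31 and 10.03 in eGFP arrays. Aldh1l1 had 4.62, 5.50 and 7.29 in β4b arrays, against 5.01, 4.02 and 4.58 in eGFP arrays. In replicate 1 the eGFP array was the higher one for these 3 genes, and in replicates 2 and 3 the β4b array was. The mean of the 22 markers ran from 9.09 to 9.95 in β4b arrays and from 8.28 to 9.43 in eGFP arrays. Without replicate 1, 19 of the 22 were higher at that p, and without replicate 2, 0 were. Over all 23044 probe sets, 2756 and 1359 were higher in these settings. The cyclin gene Ccnd2 had differences of -0.11, 2.03 and 1.41 on 1448229_s_at. Like Gria1, Igfbp5, F2r, Paqr8 and Cacng5 above, it had its gaps in the same replicates as the glial markers. The part of glial cells in the values of these genes was not tested. Zeb2 differed by 1.42, 1.55 and 1.17 within replicates 1 to 3 on the probe set that passed and by 0.21, 1.22 and 0.95 on its brightest one. Insm1 differed by -0.96, -1.48 and -1.48 on the probe set that passed and by -1.22, -0.69 and -0.57 on its second.

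Oligodendrocyte lineage markers had 6 of 18 higher and 0 lower (median 0.22), among them Pdgfra (0.59), a marker of precursors, Bcas1 (0.64), Enpp6 (0.57) and Olig2 (0.41), while Mbp, the myelin basic protein, had 14.52, 14.37 and 14.12 in β4b arrays, against 14.41, 14.27 and 14.01 in eGFP arrays. Without replicate 2, 1 of the 18 was higher, as were 1359 of all 23044 probe sets. Of 13 microglial markers, 0 differed at that p. Their medians of -0.42, 0.45 and 0.39 within replicates 1 to 3 had the same signs as those of the astrocyte markers, and the mean of the list ran from 6.79 to 7.23 in β4b arrays and from 6.41 to 7.15 in eGFP arrays. Of 14 fibroblast and meningeal markers, 1 was higher (7.14%), Pdgfra, and the collagen genes Col1a1 and Col1a2 lay under 6 in all 6 arrays. Of the endothelial and pericyte list, 2 of 13 genes were bright enough to be tested. Gad1, a marker of interneurons, was bright in both groups, with 13.59, 12.52 and 12.86 in β4b arrays, against 13.51, 12.62 and 13.29 in eGFP arrays.

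**Figure D4:**
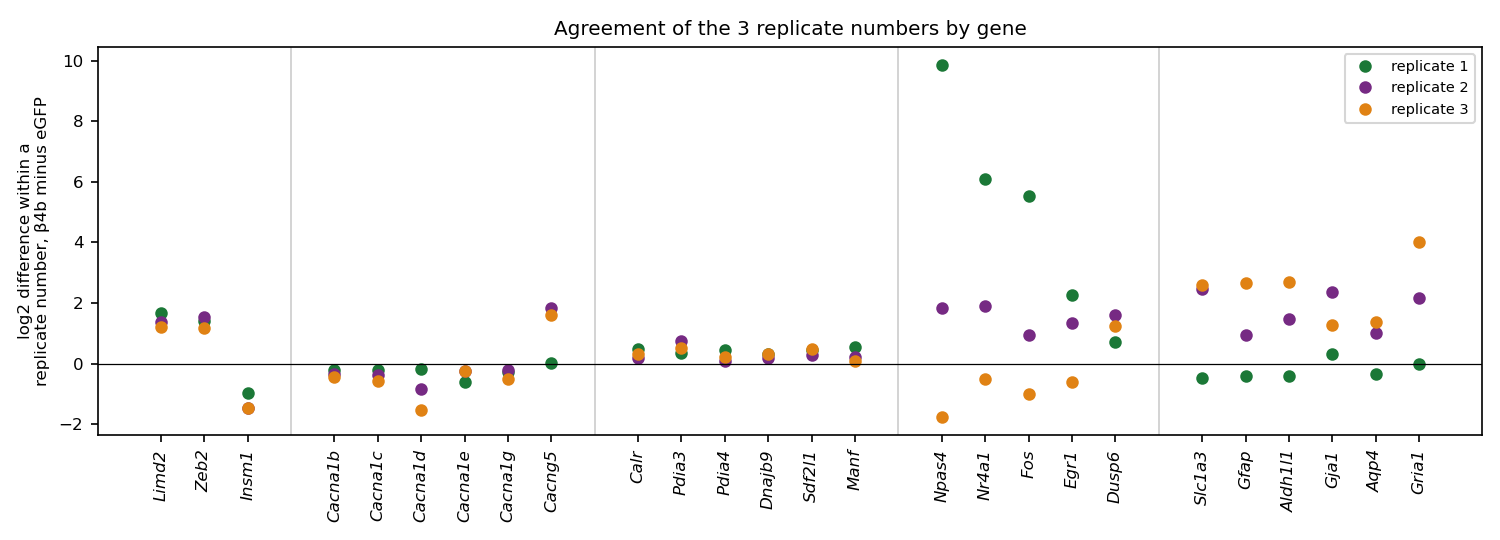
Log2 difference (β4b minus eGFP) within each of the 3 replicate numbers, 1 coloured point per number, for the genes that passed, then calcium channel, unfolded protein response, activity-regulated and glial genes with Gria1. Limd2, Zeb2 and Insm1 have 3 points on 1 side of 0, Npas4, Nr4a1, Fos and Egr1 are high in replicate 1 and below 0 in replicate 3, and most glial genes are below 0 in replicate 1 only.

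Probe sets without a gene symbol in the platform annotation made up a large share of the lower side. They were 3033 of the 23044 tested (13.2%), 706 of the 1780 lower at an unadjusted p under 0.05 (39.7%) and 101 of the 2667 higher (3.79%). Put the other way, 23.3% of probe sets without a symbol were lower and 3.33% higher, against 5.37% and 12.8% of those with a symbol. The median log2 difference of probe sets without a symbol was -0.16, with -0.23, -0.11 and -0.13 within replicates 1 to 3, and that of probe sets with a symbol was 0.05. At an adjusted p under 0.10 (limma, Benjamini-Hochberg), 93 of 199 lower and 12 of 335 higher probe sets had no symbol, where 2.32% of all probe sets passed, 0.864% lower and 1.45% higher. Against β4a, 45 of the 3033 were lower and 32 higher at an unadjusted p under 0.05 (limma), and against β4e 153 and 51. Over all probe sets, 224 were lower and 395 higher than with β4a, and 581 and 1057 than with β4e.

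The excess on the lower side against eGFP was present at each intensity. Of the probe sets without a symbol whose mean level was between 6 and 8, 37.8% were lower, against 6.54% of those with a symbol, and above 10 these shares were 9.09% and 4.52%. An example is 1445537_at, which had 6.28, 7.50 and 7.35 in β4b arrays, against 7.41, 8.55 and 8.02 in eGFP arrays. The groups overlapped for it, and each β4b array was the lower one of its number. Of 359 probe sets of annotated long noncoding RNAs, 34 were higher (9.47%) and 30 lower (8.36%). Probe sets on the lower side that had a symbol also belonged to genes of longer span in the genome. The median over probe sets was 51.5 kb, against 32.5 kb on the higher side and 29.4 kb over all tested. A stricter unadjusted p (limma) left 87 lower and 170 higher probe sets, with medians of 59.6 kb and 46.6 kb where a span was known. Whether the probe sets without a symbol lie in introns, in transcript ends or in unannotated genes was not analysed here. The share without a symbol on the lower side was 24.3% (of 107) without the replicate block, 28.8% without eGFP replicate 1, 26.0% without all arrays of replicate 1 and 48.9% without those of replicate 3, each above the share among all probe sets.

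**Figure D5:**
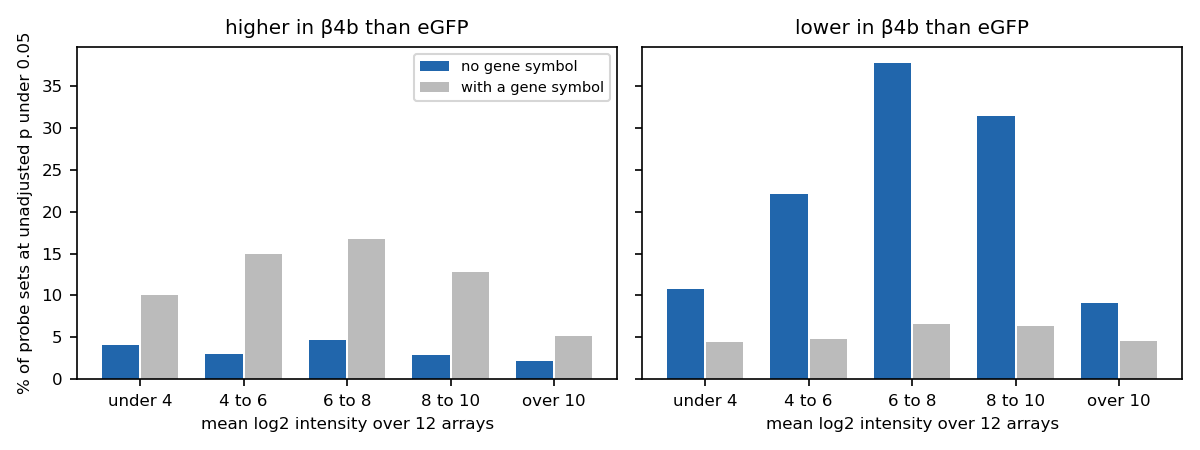
Percent of probe sets at an unadjusted p under 0.05 that were higher (left) or lower (right) with β4b than with eGFP, by mean log2 intensity over the 12 arrays, for probe sets without (blue) and with (grey) a gene symbol. The blue bar is the taller one in each bin on the lower side, and reaches 37.8% between 6 and 8, and the grey bar is taller in each bin on the higher side.

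The β4b cultures were also set directly against those with the other variants, in contrasts that use no eGFP array as a group. Against β4a, 0 of 23044 probe sets passed (limma, Benjamini-Hochberg, smallest adjusted p 0.997), with 395 higher (1.71%) and 224 lower (0.972%) at an unadjusted p under 0.05. Against β4e, 0 passed (smallest adjusted p 0.237), with 1057 higher (4.59%) and 581 lower (2.52%) at an unadjusted p under 0.05. Limd2 was 0.69 above β4a and 0.54 above β4e, and Zeb2 0.66 above β4a and 0.92 above β4e. For Zeb2 the β4a arrays had 5.22, 5.27 and 6.10 and the β4e arrays 5.23, 5.20 and 5.39, all below the lowest β4b array except β4a replicate 3. For Insm1 the difference was 0.17 from β4a, whose arrays had 9.76, 5.89 and 7.48, and -0.56 from β4e, whose arrays had 10.45, 6.62 and 8.25. Rrm2b on 1437221_at averaged 4.87 in β4b arrays, against 4.07 in β4a and 3.74 in β4e arrays, close to or under the filter value of 4. Among other genes, Gna13 was 0.58 above β4a and 0.54 above β4e, Lztfl1 and 2610507B11Rik 0.76 and 0.69 above β4e, and Hnrnpu, a nuclear matrix protein, -0.55 from β4a and -0.51 from β4e. The transposase-derived zinc finger gene Pogz, the deubiquitinase gene Usp32 and Gtf3c2 of the RNA polymerase III machinery differed by -0.66, -0.56 and -0.46 from β4a, and Grin2c, Mtrex and Coro7, an actin-binding protein of the Golgi, by -0.58, -0.52 and -0.42 from β4e. On its brightest probe set, Gna13 was 0.21 above β4a and 0.08 above β4e. The brightest probe sets of Lztfl1, 2610507B11Rik and Mtrex differed by 0.25, 0.10 and -0.11 from β4e. None of these differences between variants passed, and missing the threshold does not show that the variants act alike.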

How the data were processed

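RNA of 12 arrays (4 constructs, 3 each) was measured on Affymetrix 3′ mouse arrays with 1 value per probe set. The deposited values are log2 intensities that the authors made with GCRMA, per the submitters' processing notes, whose version is not given in the sources used here. Probe sets above 4 in at least 3 arrays were kept, with AFFX controls left out, and fitted with limma 3.58.1 in R 4.3.3 (lmFit, eBayes, 6 residual degrees of freedom) over all 12 arrays, with the replicate number as a block. Tests were two-sided, and Benjamini-Hochberg adjustment ran over all 23044 kept probe sets with a threshold of 0.05. The block stood in the fit because the comparison is defined as paired by the replicate number in the titles: deviations from group means correlated at 0.704 to 0.84 between β4b and eGFP arrays of 1 number, 0.699 to 0.884 over all 18 such pairs, and at most 0.146 otherwise. The number of arrays limits the precision.

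The members and gene lists were chosen with earlier results of these data known. Named genes were those past the threshold, those nearest to it with 1 sign in all replicates, the largest differences at an unadjusted p under 0.01 with both means above 6, up to 6 genes per direction with the most probe sets at an unadjusted p under 0.05, Cacnb4, up to 3 members per direction of each list, cell type markers, and the nearest genes against β4a and β4e. Of 45037 probe sets left without the AFFX controls, 34945 had 1 gene symbol, 932 several and 9160 none. Lists used the brightest probe set of a gene. Other genes were named to account for a count. A gene list is not reported here. The alternatives were no block, the 6 arrays alone, a second quantile normalization, median centring, other filters, eBayes with trend and robust settings, 1 probe set per gene and leaving out arrays. The fit was tested on simulated data, values drawn for the same arrays with known differences added to β4b.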

Additional observations from a re-analysis of the deposited data

How the results depend on the processing

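The count of 3 probe sets at an adjusted p under 0.05 moved with most settings. Without the replicate block there were 0 calls at 0.05 and 0 at 0.10, and 607 probe sets at an unadjusted p under 0.05. With the 6 arrays alone there were 0 at 0.05 and 0 at 0.10, and an adjusted p of 0.18 for each of Limd2, Zeb2 and Insm1. Median centring gave 53 calls, no filter 75, a filter above 6 gave 35 (2755 at an unadjusted p), and eBayes with trend and robust settings 15. With 1 probe set per gene there were 3, with 1894 at an unadjusted p and 82 at 0.10, and these were Limd2, Insm1 and Haghl (adjusted p 0.0264) and not Zeb2, whose brightest probe set had 0.184. Leaving out arrays gave 0 to 61 calls at 0.05, 2562 to 4759 at an unadjusted p and 0 to 884 at 0.10. The 61 came without eGFP replicate 1; there were 0 without any 1 of the 3 β4b arrays, eGFP replicates 2 or 3, β4a replicate 2, β4e replicates 1 or 3, or all arrays of replicate 2 or 3. Without all arrays of replicate 1 there were 3, with Insm1 (0.0446) but neither Limd2 (0.112) nor Zeb2 (0.115). The cause of these changes was not tested. Over these omissions the log2 differences ran from 1.26 to 1.53 for Limd2, 1.29 to 1.49 for Zeb2 and -1.49 to -1.22 for Insm1. A second quantile normalization left the 3 calls and split the probe sets at an unadjusted p into 2124 higher and 2283 lower, against 2667 and 1780. The comparisons with β4a and β4e gave 0 calls in each setting. Signs turned for genes that hardly differed: Neurod1, Zic1 and Col1a1 had 0.015, 0.0074 and 0.0033 after quantile normalization and Neurod1 had 0.0030 after centring. Leaving out arrays gave -0.061 to 0.078 for Gabra6, -0.045 to 0.018 for Neurod1, -0.058 to 0.021 for Zic1, -0.108 to 0.113 for Cbln3, -0.100 to 0.052 for Col1a1, -0.088 to 0.081 for Coro7 and -0.127 to 0.014 for Xist. Adjusted p under 0.10, the share without a gene symbol and the list counts without arrays were added after seeing the data.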
